A study of Rattus norvegicus with 6 samples.

Results

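Transcripts of neutrophil granule and alarmin genes were examined in the ovaries of neonatal rats given LPS or saline. The genes were chosen by name as S100a8, S100a9, Lcn2, Ltf, Camp, Ngp, Elane and Mpo, and a probe was assigned to a gene through its RefSeq accession. Of these 8 genes, 7 had a probe, 1 each, among the 30367 probes tested, which covered 15154 named genes. Mpo was not matched to a probe and was not analysed here.

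Whole-ovary RNA was measured on 6 single-colour Agilent arrays, 3 for LPS and 3 for saline. LPS animals were female Wistar pups injected intraperitoneally with 0.05 mg/kg LPS of Salmonella on PND 3 and PND 5. Saline animals were female Wistar pups that received saline in equal volume on the same days, and all ovaries were collected on PND 7. Whole litters received 1 treatment, with ovaries of 5 animals from 2 litters behind the RNA of each group, and which animals and litters stand behind an array was not given in the sources used here. The p-values therefore measure the spread between arrays, part of which may come from litters. With 2 litters behind each group, the arrays of a group may not be independent. Differences between litters cannot be told apart from an effect of treatment. Values are log2 processed signals minus the 75th percentile of the same array, so that 0 stands for the signal of that percentile. A probe was taken as well above background where the scanner software flagged all its spots as such, and is called dim elsewhere. On the saline arrays 70.4%, 66.3% and 69.9% of spots were well above background, and on the LPS arrays 76.0%, 72.5% and 74.1%.

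Neutrophils store antimicrobial proteins in granules that are filled in succession while the cells mature in the bone marrow. Azurophil granules hold myeloperoxidase and neutrophil elastase, and specific granules hold lactoferrin, lipocalin-2 and cathelicidin, whereas S100A8 and S100A9 are abundant in the cytosol. Once outside the cell, the S100A8/S100A9 pair acts as an alarmin, a danger signal sensed by TLR4, which is also the receptor of LPS, and epithelia can make several of these proteins too.

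The tissue carried its defining markers. All 8 oocyte markers with a probe were well above background on each of the 6 arrays, and the brightest probe, that of the zona pellucida gene Zp3, lay between 3.48 and 4.97. Of 7 granulosa cell markers with a probe, 6 were dim on no array, and the brightest, the inhibin subunit Inha, lay between 2.91 and 5.08. The exception was Fshr, the receptor of follicle-stimulating hormone, which was not well above background on saline replicates 1 and 2. Summed over the granulosa list, the signal relative to the 75th percentile was 37.8, 35.9 and 59.9 on saline replicates 1, 2 and 3 and 22.1, 71.7 and 50.7 on LPS replicates 1, 2 and 3. Summed over the oocyte list it was 22.8, 20.0 and 33.7 on the saline arrays and 16.8, 47.0 and 38.3 on the LPS arrays. LPS replicate 1 thus had the lowest sum for both lists.

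Saline replicates 2 and 3 also carried adrenal transcripts. The summed signal of 10 adrenal markers was 6.24, 211 and 240 on saline replicates 1, 2 and 3, and 6.22, 3.99 and 3.21 on LPS replicates 1, 2 and 3. All 10 genes were higher on saline replicates 2 and 3 than on each of the other 4 arrays. The probe brightest on average over the 6 arrays, that of the catecholamine enzyme Th, read 1.91, 4.40 and 3.81 on the saline arrays and 1.80, 1.11 and 0.76 on the LPS arrays. On saline replicates 2 and 3 the brightest was that of the steroid enzyme Cyp21a1, at 5.96 and 6.67. Cyp11b1, Chgb, Chga and Mc2r were well above background on saline replicates 2 and 3 only. Against all 3 saline arrays, 9 of the 10 passed 2-fold at an unadjusted p under 0.05 in limma as lower in LPS. They were Th, Cyp21a1, Pnmt, Dbh, Cyp11b1, Cyp11b2, Chga, Chgb and Mc2r, and Mrap was the exception (standard error 1.74). By the methods' t-test 0 of the 9 passed. Without saline replicates 2 and 3 the number was 0. Results on the granule and alarmin genes are therefore given with and without these arrays.

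**Figure D1:**
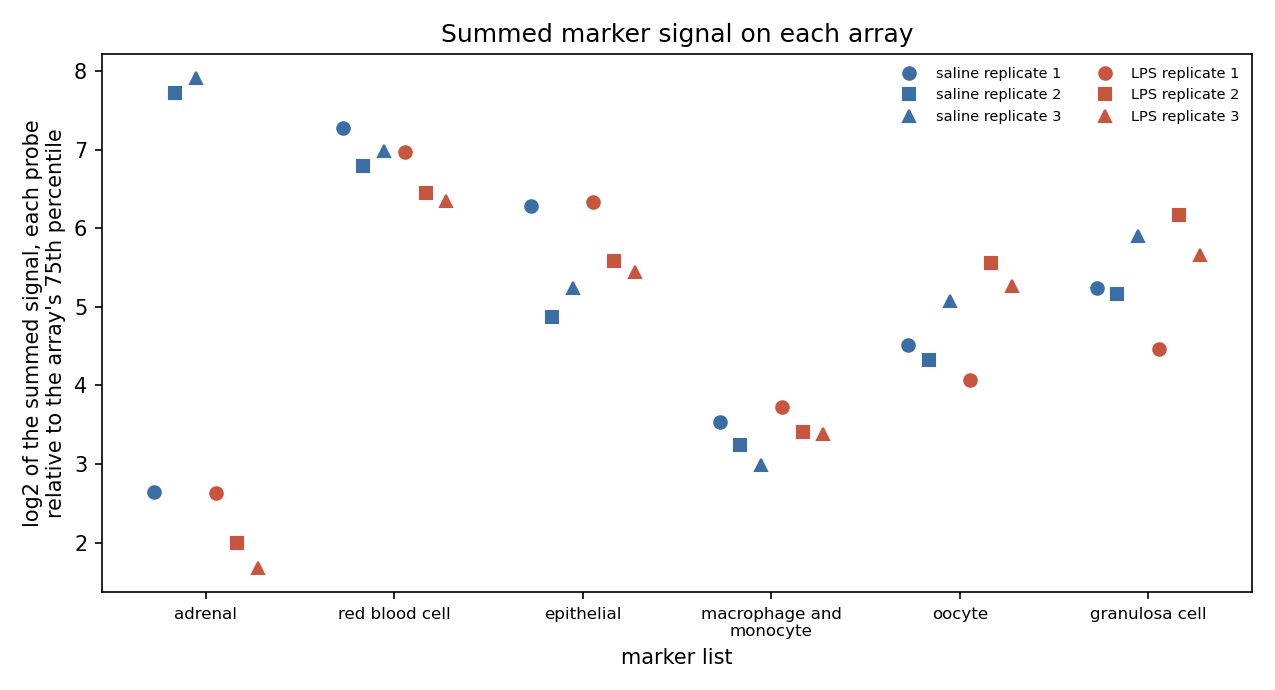
Summed signal of each marker list on each array, on a log2 axis, with every probe scaled to its array's 75th percentile; colours mark the treatment and symbols the replicate. The adrenal sum stands at 7.72 and 7.90 on saline replicates 2 and 3 and between 1.68 and 2.64 on the other 4 arrays, and the epithelial sum is highest on LPS replicate 1 and saline replicate 1, at 6.34 and 6.28.

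The alarmin pair was spread more widely among the saline arrays than between the treatments. S100a9, whose protein binds calcium and zinc and pairs with S100A8, read -2.61, -1.27 and -2.19 on saline replicates 1, 2 and 3 and -2.14, -1.85 and -1.94 on LPS replicates 1, 2 and 3. Saline replicate 2 was the highest array and saline replicate 1 the lowest, so the groups overlapped and the LPS arrays lay between the saline extremes. The means were -1.98 ± 0.15 (SD, n = 3) for LPS and -2.02 ± 0.69 (SD, n = 3) for saline. The log2 fold change of S100a9 was 0.04 (standard error 0.35, 95% interval -0.78 to 0.87, adjusted p = 0.994 in limma over all probes).

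S100a8, the partner of S100a9, read -5.45, -2.60 and -4.06 on saline replicates 1, 2 and 3 and -3.68, -3.97 and -4.21 on LPS replicates 1, 2 and 3. Again saline replicate 2 was highest and saline replicate 1 lowest, and on the latter the probe was not well above background. The saline arrays spanned 2.85 log2 units and the LPS arrays 0.54. The log2 fold change of S100a8 was 0.09 (standard error 0.67, 95% interval -1.50 to 1.67, adjusted p = 0.994 in limma), an interval from 0.353-fold to 3.19-fold. With dim signals raised to the lowest value well above background it was -0.20.

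Of the arrays left out singly, saline replicates 1 and 2 moved the value of S100a9 most. Without saline replicate 1, which carried little adrenal signal, the log2 fold changes were -0.25 for S100a9 and -0.62 for S100a8. For S100a9 the value was 0.42 without saline replicate 2 and -0.04 without saline replicate 3, which had the highest adrenal sum. For S100a8 the fits without these arrays rest on saline replicate 1, on which the probe was dim, and are not given here. With saline replicates 2 and 3 left out, only saline replicate 1 remained and its spread was assumed to be that of the LPS arrays. S100a9 then differed by 0.63 (95% interval -0.07 to 1.34, adjusted p = 0.864 in limma). S100a8 was then at least 1.57-fold higher in LPS, as the probe was not well above background on saline replicate 1 (adjusted p = 0.777 in limma). In whole tissue, more cells of a type and more RNA per cell cannot be told apart.

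Most red blood cell markers were also highest on saline replicate 2, although their summed signal was not. Of 6 red blood cell markers with a probe, 5 were dim on no array, and 4 of these 5 were highest on saline replicate 2. The list's summed signal was 155, 110 and 126 on saline replicates 1, 2 and 3 and 126, 87.5 and 81.6 on LPS replicates 1, 2 and 3, with Hba-a1 the brightest probe and highest on saline replicate 1. The remaining marker, Epb42, was dim on all 6 arrays. Ahsp, the chaperone of alpha globin, read 0.34, 2.63 and 0.37 on the saline arrays and 0.08, -0.51 and -0.60 on the LPS arrays. Haptoglobin (Hp), a hemoglobin-binding protein of liver and of neutrophil granules, read -1.84, 1.22 and -0.12 on the saline arrays and -2.31, -1.78 and -1.63 on the LPS arrays. The part of blood or of adrenal tissue in the alarmin signal of saline replicate 2 was not tested.

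Lcn2 and Ltf followed another order of arrays. Lcn2 encodes lipocalin-2, which withholds iron from bacteria by binding their siderophores. It read 3.17, 1.98 and 2.20 on saline replicates 1, 2 and 3 and 2.96, 2.65 and 2.47 on LPS replicates 1, 2 and 3. Here saline replicate 1 was highest and saline replicate 2 lowest, the reverse of the alarmin pair, and all LPS arrays lay between them. The means were 2.69 ± 0.25 (SD, n = 3) for LPS and 2.45 ± 0.63 (SD, n = 3) for saline. The log2 fold change of Lcn2 was 0.24 (standard error 0.34, 95% interval -0.57 to 1.05, adjusted p = 0.88 in limma), and against saline replicate 1 alone it was -0.48 (95% interval -1.29 to 0.33, adjusted p = 0.864 in limma).

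Ltf encodes lactoferrin, the iron-binding protein of specific granules. It read -3.78, -5.20 and -4.78 on saline replicates 1, 2 and 3 and -3.49, -4.32 and -4.62 on LPS replicates 1, 2 and 3. The probe was dim on saline replicates 2 and 3 and well above background on the other 4 arrays, and LPS replicate 1 and saline replicate 1 were the highest. The groups overlapped. The log2 fold change of Ltf was 0.44 (standard error 0.44, 95% interval -0.62 to 1.50, adjusted p = 0.786 in limma), and against saline replicate 1 alone it was -0.36 (95% interval -1.72 to 1.00, adjusted p = 0.883 in limma). With dim signals raised to the lowest value well above background it was 0.0291.

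Epithelial markers followed nearly the same order of arrays as Lcn2. All 7 epithelial markers with a probe were dim on no array, all 7 were higher on saline replicate 1 and LPS replicate 1 than on the other 4, and all 7 were lowest on saline replicate 2. Their summed signal was 77.8, 29.4 and 37.7 on saline replicates 1, 2 and 3 and 80.9, 47.9 and 43.6 on LPS replicates 1, 2 and 3. The brightest probe was that of the keratin Krt19, which lay between 3.31 and 4.70, and the largest differences were those of Epcam, 0.48 (standard error 0.43), and Wfdc2, 0.42 (standard error 0.50). None of the 7 was called in either direction, and the median log2 fold change was 0.34 with all arrays and -0.47 against saline replicate 1 alone. The part of epithelium in the Lcn2 and Ltf signals was not tested.

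**Figure D2:**
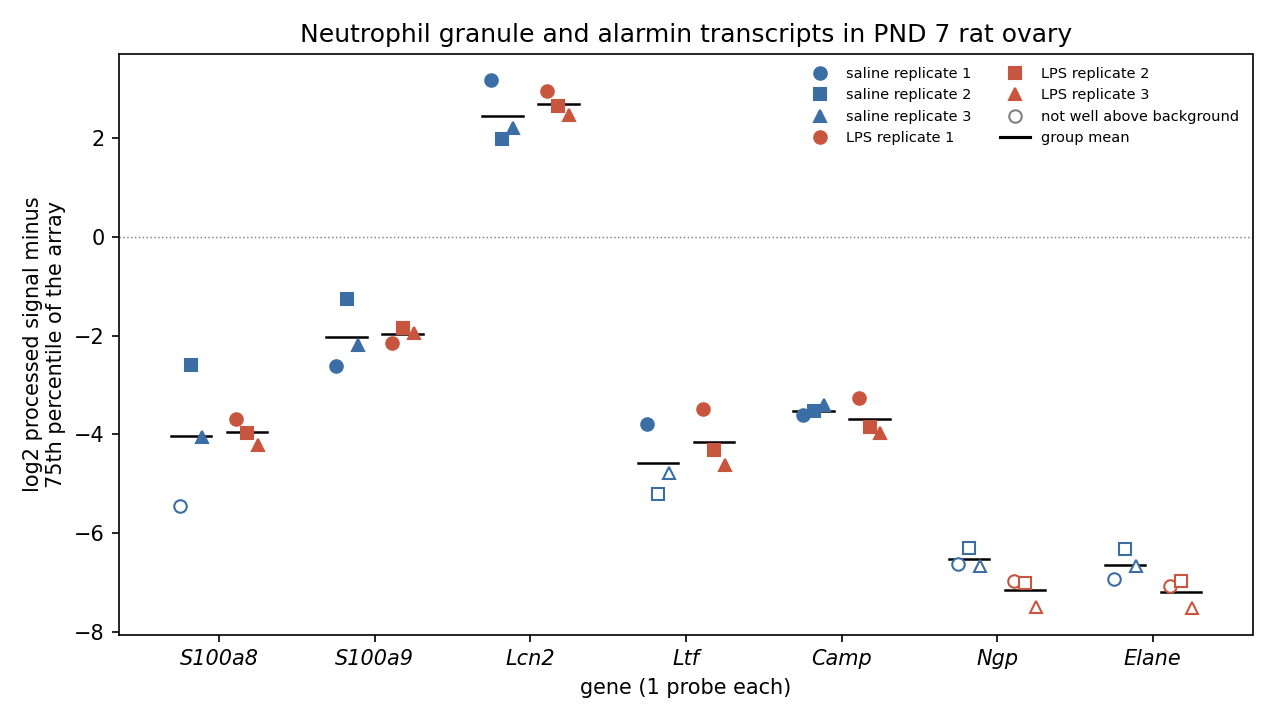
Log2 processed signal minus the 75th percentile of the array for the 7 genes with a probe, with 1 symbol per array (circle, square and triangle for replicates 1, 2 and 3), filled where the probe was well above background, and the group mean as a bar. LPS and saline arrays overlap for S100a8, S100a9, Lcn2, Ltf and Camp, while the Ngp and Elane probes are dim on every array.

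Of the antimicrobial peptide genes, Camp was measured on every array and Ngp on none. Camp encodes cathelicidin, stored as an inactive precursor in specific granules. It read -3.61, -3.53 and -3.41 on saline replicates 1, 2 and 3 and -3.27, -3.84 and -3.97 on LPS replicates 1, 2 and 3. The saline arrays lay close together, within 0.20 log2 units, with LPS replicate 1 above them and LPS replicates 2 and 3 below. The log2 fold change of Camp was -0.18 (standard error 0.23, 95% interval -0.72 to 0.36, adjusted p = 0.858 in limma), and against saline replicate 1 alone it was -0.09 (95% interval -1.08 to 0.90, adjusted p = 0.958 in limma).

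Ngp, a neutrophil granule protein related to the cathelicidins, and Elane, the serine protease neutrophil elastase of azurophil granules, were dim on all 6 arrays. Every spot of both probes held a surrogate value, which the software enters for a spot too dim to measure, so no fold change is given. These values were lower on each LPS array than on each saline array for both genes. Of 8023 probes that were well above background on no array, 55.2% showed the same order, and their median log2 fold change was -0.57, against -0.04 over all probes.

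None of the 7 genes met the criterion of a 2-fold difference at an unadjusted p under 0.05 in limma, where 513 of 30367 probes (1.69%) did so. None had an adjusted p under 0.05, a count that was also 0 (0%) over all probes. At an unadjusted p under 0.05 and any fold, limma called 1 of the 7, which was Ngp, and 16.5% of all probes, and the methods' t-test gave 1 of 7 and 3954 of all 30367 probes. The groups did not overlap for 2 of the 7, Ngp and Elane, and for 23.4% of the 30364 probes measured on all arrays. The median log2 fold change was 0.09 over the 5 genes with 1 or more arrays well above background in each treatment, of which 3 were so on all 6 arrays, and 0.03 over all 20384 probes with 1 or more such arrays in each. An exact permutation of 3 against 3 arrays cannot give a p below 0.1.

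The arrays came from 1 slide, on which row 2 held all saline arrays and LPS replicate 1, and row 1 held LPS replicates 2 and 3. With the row as a block the comparison rests on row 2, so the blocked and the within-row values are the same. In that row LPS replicate 1 was the only LPS array. The spread in this fit comes from the saline arrays and from LPS replicates 2 and 3. The log2 fold changes were then -0.12 for S100a9, 0.36 for S100a8, 0.51 for Lcn2, 1.09 for Ltf and 0.24 for Camp, and 0 of the 7 were called. The signs of S100a9 and Camp turned.

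Other granule genes gave no call with all arrays. Medians of the lists leave out genes dim on every LPS array or on every saline array, and stand beside 0.03 over all such probes. Of 11 further azurophil granule genes with a probe, 0 were called in either direction, and the median log2 fold change was 0.21 over 9. Their brightest probe was that of Cd63, a granule membrane protein found in many cells, between 3.32 and 3.77 on the 6 arrays. Serpinb1a, an inhibitor of elastase, differed by 0.38 (standard error 0.29). The defensin gene RatNP-3b read -4.07, -2.01 and -3.15 on saline replicates 1, 2 and 3 and -4.36, -3.80 and -4.02 on LPS replicates 1, 2 and 3. As with the alarmin pair, saline replicate 2 was highest, and the log2 fold change of RatNP-3b was -0.98 (standard error 0.50, adjusted p = 0.398 in limma) with all arrays and 0.01 against saline replicate 1 alone. Ctsg and Prss57, serine proteases stored with elastase, were dim on all 6 arrays. Prtn3, another serine protease of the list, was dim on no array and lay between -2.26 and -0.92. Bpi was well above background on 3 LPS and 2 saline arrays.

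Of 10 further genes of specific and gelatinase granules, 0 were called, and the median log2 fold change was 0.12 over 8. Hp had the largest difference, -1.66 (standard error 0.72, adjusted p = 0.315 in limma), which was -0.07 against saline replicate 1 alone. Padi4, which citrullinates histones during release of neutrophil chromatin, had the brightest probe and lay between -1.19 and 0.09. Mmp8, the neutrophil collagenase, and Olfm4, a specific granule protein, were dim on all 6 arrays.

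The NADPH oxidase makes the superoxide from which myeloperoxidase products derive. Of its 5 subunit genes with a probe, 0 were called, and the median was 0.08 over 4. Cyba, its membrane subunit, had the brightest probe and lay between 2.67 and 3.24, Ncf1, an organizer subunit, differed by 0.08 (standard error 0.24), and Cybb, the catalytic subunit of phagocytes, was dim on all 6 arrays. Among 15 neutrophil surface and signaling genes, 0 were called, the median was 0.35 over 4 and 9 were dim on all 6 arrays, among them the receptors Csf3r, Cxcr1 and Cxcr2. Fpr1, the formyl peptide receptor, had the brightest probe, between -1.74 and -0.28. Fcgr3a, an Fc receptor, was at least 1.68-fold higher in LPS (adjusted p = 0.456 in limma), with LPS replicate 2 at -2.09 and the other 5 arrays between -5.01 and -4.44, so that the bound rested on 1 array and none remained without it. Alox5ap, needed for leukotriene synthesis, differed by 0.55 (standard error 0.25, adjusted p = 0.326 in limma) and was higher on every LPS array than on every saline array.

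Transcription factors that guide granulocyte development gave 1 call among 7 genes with a probe, and the median was 0.09 over 6. Cebpb, which drives emergency granulopoiesis, read 2.01, 3.51 and 3.23 on saline replicates 1, 2 and 3 and 1.92, 1.53 and 1.55 on LPS replicates 1, 2 and 3. It passed the unadjusted criterion as lower in LPS, by -1.25 log2 units (standard error 0.40, adjusted p = 0.272 in limma). The high arrays were saline replicates 2 and 3, and against saline replicate 1 alone the value was -0.35 and no longer passed. Cebpe, which switches on specific granule genes, lay between -4.00 and -3.60, and Gfi1, its partner in neutrophil maturation, was dim on all 6 arrays. Cebpd differed by -0.51 (standard error 0.34) with all arrays and by 0.24 against saline replicate 1 alone.

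Of 7 neutrophil chemoattractants and growth factors with a probe, 0 were called, and the median was 0.14 over 2, with 4 genes dim on all 6 arrays. These 4 were the chemokines Cxcl1, Cxcl2 and Cxcl6 and the cytokine Il17a. Cxcl12, which retains neutrophils in the marrow, had the brightest probe and differed by 0.48 (standard error 0.27). Csf3, the granulocyte growth factor, differed by -0.21 (standard error 0.54), with saline replicate 3 and LPS replicate 1 the highest at 0.82 and 0.22. Against saline replicate 1 alone its value turned to 0.47.

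Among 13 other S100 genes with a probe, 1 was called higher in LPS and 0 lower, and the median was 0.23 over 11. Over all 13 the median was 0.19 with all arrays, where 11 were positive. Against saline replicate 1 alone it was -0.23, and 3 were positive. The called gene was S100g, which encodes the calcium carrier calbindin-D9k and is not an alarmin. S100g read -2.74, -3.59 and -3.02 on saline replicates 1, 2 and 3 and -2.15, -2.00 and -1.82 on LPS replicates 1, 2 and 3. All LPS arrays were above all saline arrays, and the log2 fold change of S100g was 1.13 (standard error 0.26, adjusted p = 0.272 in limma), or 0.75 against saline replicate 1 alone. It was 0.47 without background subtraction. S100a11 had the brightest probe, between 4.32 and 5.25, and S100a5, dim on saline replicate 2, differed by 0.46 (standard error 0.67). Against saline replicate 1 alone the value of S100a5 turned to -0.82. Of the 10 other S100 genes well above background on all arrays, 7 were highest on saline replicate 1 and LPS replicate 1, the arrays on which Lcn2 was highest and S100a9 was not.

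Of 6 other alarmin genes, 0 were called, and the median was 0.01 over 4. Il33, a nuclear cytokine released from damaged cells, differed by -0.77 (standard error 0.28, adjusted p = 0.276 in limma). Anxa1, which curbs neutrophil entry into tissue, had the brightest probe, between 4.36 and 5.58, Hmgb2 differed by 0.19 (standard error 0.17), and Il1a and Il1b were dim on all 6 arrays. Of 10 genes for receptors of the encoded proteins, 0 were called, and the median was -0.03 over 8. Bsg, a receptor of S100A9, had the brightest probe, between 4.39 and 4.81, and Cd14, the LPS co-receptor, differed by 0.24 (standard error 0.18). Lrp2, an endocytic receptor of lipocalin-2, differed by 0.58 (standard error 0.54), but was dim on saline replicate 2, without which the value was -0.04.

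Acute phase and iron handling genes gave 0 higher and 2 lower calls among 12, with a median of -0.25 over 10. A2m, a protease inhibitor of plasma, was called lower at -1.34 (standard error 0.52, adjusted p = 0.286 in limma), which was -0.13 against saline replicate 1 alone. Hpx, the heme scavenger, was called lower at -3.22 (standard error 1.01, adjusted p = 0.272 in limma), a value that includes LPS replicates 2 and 3, on which it was dim. It was well above background on saline replicates 2 and 3 and LPS replicate 1 only, and was not called against saline replicate 1 alone. Fth1, the ferritin heavy chain, had the brightest probe, between 5.65 and 6.08. The red blood cell list gave 1 call, Slc4a1, the anion exchanger of the red cell membrane, at -1.17 (standard error 0.45, adjusted p = 0.283 in limma), or -0.63 against saline replicate 1 alone, and the list's median was -0.85 over 5.

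Markers of other leukocytes were measured on the same arrays. Of 15 macrophage and monocyte markers with a probe, 1 was called higher and 0 lower, with a median of 0.21 over 10. This was the mannose receptor Mrc1, at least 2.08-fold higher in LPS because no saline array was well above background (adjusted p = 0.272 in limma), a bound that fell under 2-fold in several alternatives, among them those without saline replicate 1 (0.90 log2 units) and without LPS replicate 3 (0.70). Adgre1, a surface receptor of tissue macrophages, differed by 0.81 (standard error 0.24, adjusted p = 0.272 in limma) and was higher on every LPS array than on every saline array. Against saline replicate 1 alone Adgre1 differed by 1.21, which is past 2-fold. The list's brightest probe was that of Aif1, between 0.93 and 1.64, and its summed signal was 11.6, 9.48 and 7.96 on saline replicates 1, 2 and 3 and 13.2, 10.6 and 10.4 on LPS replicates 1, 2 and 3. Of 8 mast cell and eosinophil markers 0 were called (median 0.18 over 5), with the mast cell protease Cpa3, dim on saline replicate 2, at 0.93 (standard error 0.26, adjusted p = 0.272 in limma), the tryptase Tpsb2 at 0.28 (standard error 0.18), and the brightest probe that of Cma1. Of 6 T and B cell markers 0 were called (median 0.16 over 3), the brightest probe was that of Cd3d, and Cd4 and Cd79b differed by 0.28 (standard error 0.17) and 0.16 (standard error 0.25). None of the 8 oocyte and 7 granulosa cell markers was called, and their medians were 0.42 and 0.25. Among them Bmp15 differed by 0.75 (standard error 0.45), Ddx4 by 0.63 (standard error 0.52) and Kitlg by 0.57 (standard error 0.18). Fshr, dim on saline replicates 1 and 2, differed by 0.98 (standard error 0.51), and by 0.26 with dim signals raised to the lowest value well above background.

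Without saline replicates 2 and 3, the limma fit called 1 of the 7 granule and alarmin genes, S100a8, beside 1000 of 30367 probes. S100a8 was dim on the remaining saline array, and its bound of 1.57-fold does not reach 2-fold. The defensin gene Np4 of the azurophil list was also not well above background on saline replicate 1. Medians under that comparison, dim genes included, stand beside -0.15 over all probes. They were -0.08 for azurophil granules, -0.15 for specific and gelatinase granules, -0.15 for NADPH oxidase and 0.02 for neutrophil surface genes. The transcription factors gave -0.04, the chemoattractants -0.33, the other S100 genes -0.23, the other alarmins -0.33 and the macrophage markers 0.0035. Some named genes that were positive with all arrays turned negative there, while others, such as Kitlg and Adgre1, kept their sign. Among those that turned, Serpinb1a was -0.15, Fpr1 -0.63, Padi4 -0.45, Anxa1 -0.67, Epcam -0.39 and Wfdc2 -0.595.

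The genes whose log2 values ran most like those of a measured member were sought among 2257 or 2258 genes well above background on all 6 arrays and spanning at least 1 log2 unit. For Lcn2 they were Defb25, a defensin (Pearson r = 0.996), Ezr, which links membrane to actin in epithelial microvilli (0.994), and Gpx2, an epithelial glutathione peroxidase (0.992). For S100a9 they were Ctss, a lysosomal protease of phagocytes (0.993), Mllt11 (0.966) and Oxr1 (0.932), and Ctss, like S100a9, was highest on saline replicate 2, at -1.74, and lowest on saline replicate 1, at -2.75. For Camp they were Nkx2-6 (0.985), Or4f14d (0.980) and Rilp (0.977), all highest on LPS replicate 1 and lowest on LPS replicate 3, as Camp was. Each r is over the same 6 arrays and is a description of them.

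The RefSeq table of rat genes places S100a8 and S100a9 on chromosome 2 with 0 protein-coding genes between them, and Camp, Ngp and Ltf on chromosome 8, with 9 protein-coding genes between Camp and Ngp and 21 between Ngp and Ltf. Promoter sequences from RefSeq (GRCr8) were at hand for 6 of the 8 listed genes. The 250 bases before the start of Lcn2 and Ltf, which shared their highest arrays, and of S100a9, which did not, are printed on the gene's strand so that they can be compared. Capitals mark matches, on either strand, to TTNNGNAA (C/EBP type), to GGG and CC with 5 bases of any kind between them (NF-kappaB type) and to TATAAA. These letters occur in 36.8%, 43.5% and 13.1% of the 27456 rat promoter stretches of 250 bases in the table. The stretches lie at chr3:36081781-36082030 (minus strand) for Lcn2, chr8:119878094-119878343 (plus strand) for Ltf and chr2:178490623-178490872 (minus strand) for S100a9.
Lcn2: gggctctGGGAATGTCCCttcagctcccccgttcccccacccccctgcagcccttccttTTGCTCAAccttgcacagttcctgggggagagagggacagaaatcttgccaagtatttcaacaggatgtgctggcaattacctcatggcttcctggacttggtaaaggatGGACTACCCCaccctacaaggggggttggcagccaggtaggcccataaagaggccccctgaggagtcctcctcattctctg
Ltf: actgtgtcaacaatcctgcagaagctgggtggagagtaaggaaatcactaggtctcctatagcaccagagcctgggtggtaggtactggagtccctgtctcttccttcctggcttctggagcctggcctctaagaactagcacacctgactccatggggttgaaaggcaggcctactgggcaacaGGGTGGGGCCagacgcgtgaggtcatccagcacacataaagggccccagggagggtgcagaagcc
S100a9: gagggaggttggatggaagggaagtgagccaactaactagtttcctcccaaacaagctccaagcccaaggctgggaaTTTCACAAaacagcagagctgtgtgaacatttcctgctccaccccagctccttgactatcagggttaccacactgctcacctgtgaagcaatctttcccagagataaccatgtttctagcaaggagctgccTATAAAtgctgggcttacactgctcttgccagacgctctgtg

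The Lcn2 stretch held 3 matches to the NF-kappaB type letters, of which 2 overlap on opposite strands, and 1 match to the C/EBP type letters. The Ltf stretch held 1 match to the NF-kappaB type letters, and the S100a9 stretch 1 match to the C/EBP type letters and 1 to TATAAA. A match describes the sequence only.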

How the data were processed

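RNA of whole ovaries from female Wistar pups on PND 7 was measured on 6 Agilent arrays (62976 spots each), grouped by the treatment and replicate number of each sample's title. The authors deposited spot intensity values and flags per array, written by Agilent Feature Extraction 10.5.1.1, and a table of the whole study whose intensities equal the processed signal within 0.497%; lumi is named in the submitters' processing notes. The processed signal is background-subtracted, with surrogate values for dim spots. No spot was saturated.

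Spots flagged as non-uniform or population outliers were left out, log2 values were averaged over the spots of a probe, and the 75th percentile over probes of each array was subtracted. A probe with any spot not flagged well above background is called dim. That percentile was 2379, 4614 and 3199 in processed signal on saline replicates 1, 2 and 3 and 3389, 4115 and 5497 on the LPS arrays. LPS was compared with saline by limma 3.58.1 in R 4.3.3 on all 30367 probes with at least 2 values per group, with Benjamini-Hochberg adjustment over all of them. The study's criterion, 2-fold at an unadjusted p under 0.05, and an adjusted p under 0.05 were both applied. Of the probes, 17998 were named through RefSeq accessions, 3408 had an accession that was not matched, and 8961 had none. A list gene was represented by its brightest probe, by the mean over the 6 arrays.

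Where no array of a group was well above background, the fold is a bound: the brighter group's mean minus the mean, over the dim arrays, of the higher of the probe's own value and the lowest value well above background. Named were all listed genes with a probe and, from each of 18 other lists, the brightest probe, every call at the 2-fold criterion and the 2 largest differences among genes dim on no array of at least 1 treatment, though not every gene so chosen is printed. Most-alike genes were the 3 with the highest Pearson r. Cebpe, Gfi1, Epb42, the receptors and chemokines below background, Il1a, Il1b, Ctsg, Prss57, Mmp8, Olfm4, Cybb and Np4 were named after their values were seen. The same holds for Prtn3 and Bpi. The genes and lists were chosen with earlier results of these data known. Deviations from the group means correlated between same-numbered arrays (r = 0.298, 0.215 and 0.254), each over 0.1. Of the arrays with unlike numbers, LPS replicate 2 with saline replicate 3 was also over 0.1 (r = 0.160). LPS replicate 3 with saline replicate 2 gave 0.0678, and the others lay between -0.271 and -0.163. Deviations cancel out within a group, so these r depend on each other and cannot show that the arrays were paired. No label states a pairing. A fit with the replicate as a block was run only as an alternative to the main fit without it. The procedure was tested on simulated data.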

Additional observations from a re-analysis of the deposited data

How the results depend on the processing

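The 7 granule and alarmin genes gave 0 calls at the 2-fold criterion under every alternative run, except that 1 (S100a8) was called with saline replicates 2 and 3 both left out. At adjusted p they gave 0 under all 20 alternatives. The alternative that kept only probes dim on no array of at least 1 treatment tested 5 of the 7, without Ngp and Elane. Among all probes the criterion called 513 with the main values (186 higher, 327 lower). It called 211 without background subtraction (0 higher, 211 lower), 282 after normexp (2 higher, 280 lower), 291 after quantile normalization, 280 when the test kept only probes dim on no array of at least 1 treatment, 148 by the methods' t-test, 1000 with saline replicates 2 and 3 left out, and 1555 when slide row was a block (1489 higher, 66 lower), where 5 passed adjusted p. Without normalization between arrays it called 1230 (1003 higher, 227 lower), and the median over all probes moved from -0.04 to 0.34. Leaving out 1 array at a time gave 250 to 1131 probes, and 0 to 290 at adjusted p, the highest of both without saline replicate 1. With the replicate block, 628 probes and 0 of the 7 genes were called, 0 of either at adjusted p. The block changed no call on the 7 at either criterion, and at an unadjusted p under 0.05 and any fold limma counted 2 of the 7 instead of 1, and 6307 of all probes instead of 5018.

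Of the 5 measured genes, sign turns occurred as follows. Without background subtraction S100a8 was -0.19, S100a9 -0.0587 and Ltf -0.0371. After normexp these were -0.21, -0.0435 and -4e-04. With signals raised to the lowest value well above background S100a8 was -0.20, and Ltf kept its sign at 0.0291. Without normalization Camp was 0.20, below the median of all probes. Blocking on slide row, S100a9 was -0.12 and Camp 0.24. With saline replicates 2 and 3 left out Lcn2 was -0.48 and Ltf -0.36. Leaving out 1 array gave -0.62 to 0.80 for S100a8 (the highest against a dim saline replicate 1), -0.25 to 0.42 for S100a9, 0.01 to 0.60 for Lcn2, 0.11 to 0.68 for Ltf and -0.39 to -0.04 for Camp. Of 30 chosen list genes, 578 of 585 values kept their sign. These genes were chosen for their larger changes, and a bound of the opposite sign was not counted, which favours kept signs. Genes outside the 30 also turned, such as Serpinb1a and Fpr1 without saline replicates 2 and 3. Within the 30 the values that turned were as follows. Without saline replicates 2 and 3 RatNP-3b was 0.0114, Cebpd 0.24, Lrp2 -0.39 and Mrap 0.43. Blocking on slide row, Ddx4 was -0.36 and Bmp15 -0.0719. Lrp2 ranged from -0.0448 to 1.07 with 1 array left out. Of the called list genes, S100g passed in 15 of 20 alternatives, Cebpb in 13, Mrc1 in 13, A2m in 12, Slc4a1 in 12 and Hpx in 15 of 18. By the t-test only S100g passed, and none of the adrenal markers. S100g was 0.47 without background subtraction and 0.69 after normexp, and the bound of Mrc1 was 0.16 and 0.32 log2 units there and 0.97 after quantile normalization, and 0.70 to 1.33 with 1 array left out. The bound of Fcgr3a was 0.0109 with slide row as a block and could not be given without LPS replicate 2. Lrp2 was 0.0015 without background subtraction and 0.39 with raised signals. Fshr was 0.0315 without background subtraction, 0.13 after normexp and 0.26 with raised signals. Cyp11b2 lost its call with the replicate block, and Cyp11b1, Chgb, Chga and Mc2r after quantile normalization. The cause was not tested. Each of the 7 granule and alarmin genes had 1 probe, so averaging the probes of a gene changed nothing for them and gave no separate value.

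Signals near background limit S100a8, Ltf, Ngp and Elane. 3 arrays per treatment, 1 slide, litters that cannot be traced to arrays, and adrenal transcripts on 2 of 3 saline arrays limit every comparison, and intervals as wide as that of S100a8 include changes of 2-fold in both directions.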
